A study of Caenorhabditis elegans with 2 samples.

Results

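Genes for splicing factors were examined in a chromatin immunoprecipitation sequencing (ChIP-seq) study of HLH-8, the Twist-family basic helix-loop-helix factor of Caenorhabditis elegans. The genes are the 46 nuclear protein-coding genes whose names start with snr-, lsm-, prp-, rnp-, uaf- or rsp-, of 19973 in the Ensembl annotation. They were picked by name and not by any measured value, but the list was chosen with earlier results of these data known. By prefix they comprise 7 snr, 7 lsm, 13 prp, 9 rnp, 2 uaf and 8 rsp genes. They lie on chromosomes III (12 genes), II (10), IV (9), I (8), V (6) and X (1).

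Per the labels, both samples are whole hermaphrodite embryos of strain OP63 at a late embryonic stage, collected 3.5 hours after synchronization by bleaching. The animals carry a transgene for HLH-8 with GFP and FLAG at its C terminus, and the immunoprecipitation used an antibody against GFP. The 2 biological replicates form 1 group, so no condition can be compared with another and no test between groups was possible. The labels do not give the promoter of the transgene or the state of the native hlh-8 gene, and an untagged strain and control libraries were not analysed here.

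Introns are removed from pre-mRNA by the spliceosome, which is assembled from small nuclear ribonucleoproteins (snRNPs). Sm proteins, encoded by snr genes, form a ring on most spliceosomal RNAs, and LSm proteins form the related ring on U6 RNA. The prp genes encode proteins named after yeast pre-mRNA processing mutants, uaf genes encode the U2AF factor that recognizes the 3′ splice site, and rsp genes encode SR proteins, which guide splice site choice. HLH-8 is best known from the M lineage, which gives rise to postembryonic mesoderm including the egg-laying muscles, and Twist-family factors bind E-boxes, the sequence CANNTG.

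The deposited ce11 lists hold 24268 candidate peaks for replicate 1 and 23945 for replicate 2, and 25904 for both replicates pooled. The candidate lists contain background by design. The optimal list holds the 1120 peaks kept after the authors' reproducibility step, with pooled signals down to 57.363, and the next pooled candidate, at 57.355, lies outside it. The signal is the peak's own value as deposited by the authors, in an arbitrary unit, and read depth is unknown. It is used here to rank peaks within a list, with rank 1 the strongest. A gene was given a summit, the highest point of a peak, when it fell in a window reaching from 2000 bp before the gene's 5′ end to 500 bp past it.

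Of the 46 splicing factor genes, 5 had an optimal summit in the window, or 10.9%, against 5.41% of the other 19927 protein-coding genes. At the share of the other genes, 2.49 of 46 would be counted. These 5 are snr-1, prp-19, lsm-3, prp-21 and rsp-4. Any pooled candidate, optimal or not, lay in the window of 38 splicing factor genes, or 82.6%, against 50.6% of the others, which corresponds to 23.3 of 46. A gene list has no replicates, so these counts are a description beside the background, with no test.

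The difference from other genes was larger just below the end of the optimal list than at it. One of the 560 strongest candidates lay in the windows of 4 splicing factor genes (8.7%), against 2.89% of the others. With the 2240 strongest candidates the count was 15 (32.6%), against 9.57% of the others. With the 4480 strongest it was 21 (45.7%), against 16.1%. The 2240 and 4480 limits were chosen after seeing the data. Thus 10 splicing factor genes, against 5 with an optimal summit, had their strongest candidate between the end of the optimal list and rank 2240. Of these, rsp-1 and rsp-2 share a summit. Of the other 19927 genes, 1078 had an optimal summit and 1907 had one of the 2240 strongest candidates.

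**Figure D1:**
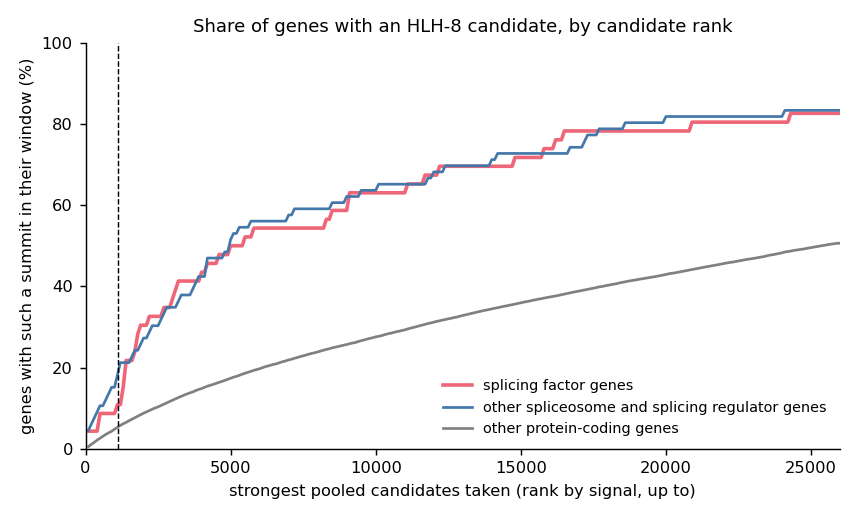
Share of genes (%, vertical axis) with a summit in their window when the strongest pooled candidates up to a given rank are taken (horizontal axis); the dashed line marks the 1120 optimal peaks. Splicing factor genes (46) and other spliceosome and splicing regulator genes (66) both run above the other protein-coding genes. They stand apart at the dashed line, at 10.9% and 18.2%, and with all candidates they reach 82.6% and 83.3%, beside 50.6% of the other genes.

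None of the 5 optimal summits was closest to the 5′ end of the splicing factor gene itself. An optimal summit closest to the gene's own 5′ end was found for 0 of 46 splicing factor genes, against 3.45% of the other genes. At the share of the other genes only 1.59 of 46 would be counted, so a count of 0 is near the background. Among genes with an optimal summit in the window, the other genes were the closest in 687 of 1078 cases, or 63.7%. The same was so for 7 of 18 ribosomal protein genes (38.9%) and 4 of 6 proteasome subunit genes (66.7%). All 5 summits lay in the windows of 2 to 5 genes each, with a median of 3. Of 728 other optimal summits in a window, 304 were shared (41.8%), with a median of 1. That all 5 were shared follows from the nearest-gene result and adds nothing to it. Another gene's 5′ end lay at most 254 bp from each summit, a distance that always falls in that gene's window. The 5 were also reached through a gene's window, which favours shared summits. All 5 lay between protein-coding genes, and none was within 250 bp of a tRNA, snoRNA or snRNA gene.

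The nearest-gene and narrow-window counts moved with the replicate used. Among the 1120 strongest candidates of replicate 1 alone, 5 splicing factor genes had a summit in the window (5.27% of the others), and for 2 of them, prp-21 and prp-8, it was closest to their own 5′ end (3.39% of the others). For replicate 2 alone these counts were 7 (5.24% of the others) and 0 (3.34% of the others). In the narrow window, from 500 bp upstream to 200 bp downstream, 2 splicing factor genes, snr-1 and prp-21, had an optimal summit, against 3.03% of the others. That count was 3 from replicate 1 alone (2.87% of the others) and 4 from replicate 2 alone (2.85% of the others). The genes snr-1, prp-19, lsm-3 and prp-21 had a summit among the 1120 strongest of each replicate. The optimal list was itself made by a reproducibility step between the replicates, so this overlap is not separate support.

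**Figure D2:**
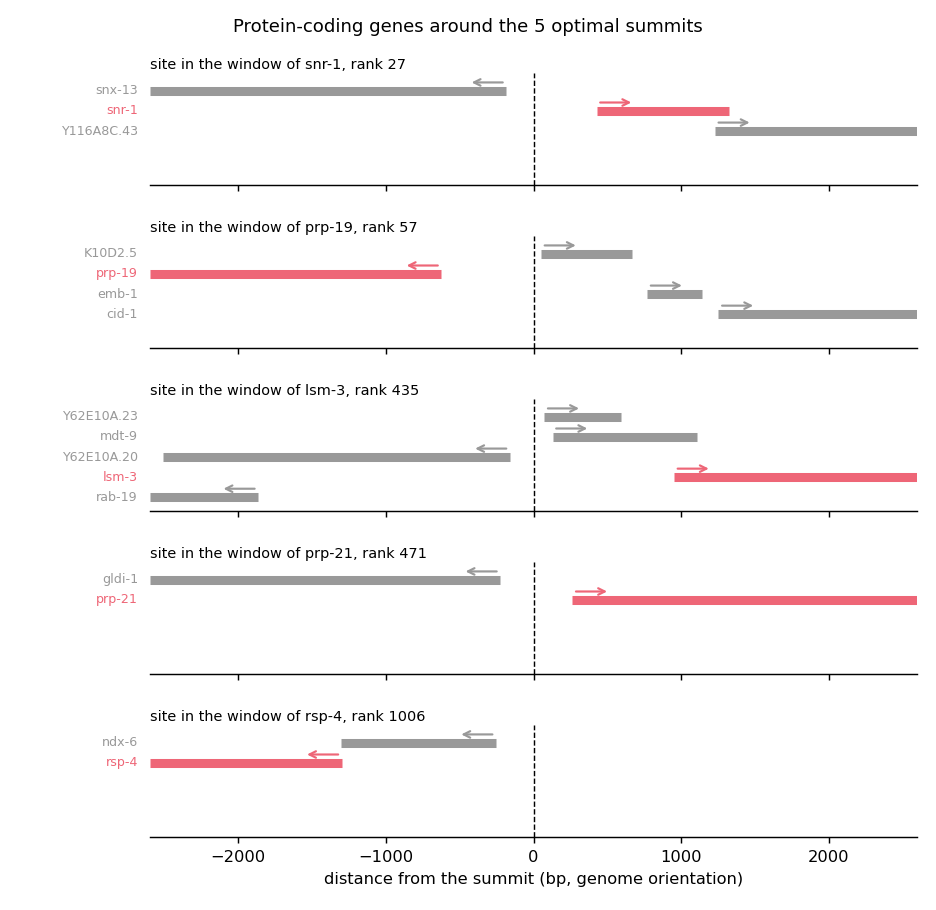
Protein-coding genes with the optimal summit in their window, drawn to scale around each of the 5 summits (dashed line, distance in bp); red bars are splicing factor genes, grey bars other genes, cut at the panel's edge, and arrows show the 5′ end and the direction of transcription. In each panel a grey gene's 5′ end is nearer to the summit than the red gene's.

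The Sm protein genes held the strongest site. The summit upstream of snr-1 (WBGene00004914), which encodes the SmD3 protein, ranked 27 of all pooled candidates with a signal of 247. Replicate 1 gave 104 and replicate 2 gave 142, a mean of 123 ± 26.8 (SD, n = 2). The peak lies at chrIV:17087359-17087760 (ce11), with its summit 427 bp upstream of the 5′ end of snr-1. The divergently transcribed neighbour snx-13, a sorting nexin gene, begins 184 bp from the summit, and the window of Y116A8C.43, which overlaps the 3′ end of snr-1 on the same strand, also contains it.

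The other Sm genes had weaker candidates. At snr-2, the SmB gene on chromosome I, the candidate ranked 1291 with a signal of 53.6, from 17.2 in replicate 1 and 36.6 in replicate 2, and lay 345 bp upstream. The replicates differed most here among the sites matched in both, with a log2 ratio of replicate 2 to replicate 1 of 1.09. The nearest 5′ end to that summit, 121 bp away, was that of W08E3.4. At snr-4, the SmD2 gene on chromosome V, the candidate ranked 1602 with a signal of 47.6, from 20.6 and 30.8, and lay 374 bp upstream. Its summit was 21 bp from an annotated snRNA gene, T11F9.15, and it was the only one of the members' strongest candidates within 250 bp of such a gene. Part of that signal cannot be told apart from signal at the snRNA gene. The candidates of snr-6 (SmE, signal 24.4), snr-3 (SmD1, 20.1) and snr-7 (SmG, 18.4) were near the median of other genes' strongest candidates, 20.3, and snr-5 (SmF) had none.

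Among the LSm genes, lsm-3 (WBGene00003077) had the optimal summit, ranked 435 with a signal of 87.1. Replicate 1 gave 47.4 and replicate 2 gave 41.3, a mean of 44.4 ± 4.37 (SD, n = 2). The summit, in the peak chrIV:13386029-13386472, lay 952 bp upstream of lsm-3 and in the windows of 5 genes. The nearest 5′ end, 73 bp away, was that of Y62E10A.23, and mdt-9, a Mediator subunit gene, began 129 bp away. The candidate of lsm-7 ranked 1787 with a signal of 44.8, 185 bp upstream. A replicate 2 candidate of 32.0 matched it within 200 bp, and no replicate 1 candidate did. The dynactin gene dnc-1, transcribed away from lsm-7, began 114 bp from that summit. Weaker candidates were listed for lsm-6 (28.3), lsm-5 (15.6) and lsm-4 (15.3). The genes lsm-1, whose product acts in mRNA decay in the cytoplasm, and lsm-8 had no candidate.

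The prp genes held 2 of the 5 optimal summits. The one in the window of prp-19 (WBGene00020423), which encodes a ubiquitin ligase that acts in spliceosome activation, ranked 57 with a signal of 179. Replicates gave 82.5 and 94.0, a mean of 88.3 ± 8.09 (SD, n = 2). The summit, in the peak chrIII:5172575-5172819, was 624 bp upstream of prp-19 but 51 bp from the 5′ end of K10D2.5 on the opposite strand. Behind K10D2.5 on that strand, the windows of emb-1, for a subunit of the anaphase-promoting complex, and cid-1, for a poly(U) polymerase, also held the summit.

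The optimal summit of prp-21 (WBGene00004188), whose product is the SF3A1 subunit of the U2 snRNP, ranked 471 with a signal of 84.8. Replicate 1 gave 32.2 and replicate 2 gave 56.5, a mean of 44.3 ± 17.2 (SD, n = 2), the widest relative spread of the 5 sites. In the peak chrII:484381-484824, the summit was 263 bp upstream of prp-21 and 225 bp from the 5′ end of the divergent gene gldi-1. The summit thus lay near the middle between these 5′ ends.

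Just outside the optimal list, prp-8, for the U5 snRNP protein at the spliceosome's catalytic centre, had a candidate of rank 1201 with a signal of 55.5, 310 bp upstream. Replicate 1 gave 34.7 and replicate 2 gave 21.9, a mean of 28.3 ± 9.11 (SD, n = 2). It was the strongest of the candidates nearest to a splicing factor gene's own 5′ end. Further prp candidates were at prp-31 (36.0), prp-40 (33.5), prp-18 (25.1), prp-39 (20.9), prp-4 (20.6), prp-9 (18.0) and prp-17 (13.5). The genes prp-3, prp-6 and prp-38, whose products belong to the U4/U6.U5 tri-snRNP in yeast, had no candidate, whereas prp-4 and prp-31, for proteins of the same particle, had the ones just given.

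No rnp or uaf gene had an optimal summit. The rnp prefix covers proteins with an RNA recognition motif and mixed roles. The strongest rnp candidate was that of rnp-6, the PUF60 homologue, on chromosome I, with rank 1789 and a signal of 44.7, from 24.0 and 16.4 in replicates 1 and 2. It lay 163 bp upstream of rnp-6 and within the 5′ UTR of the divergent gene rde-10. At rnp-7, for the 70K protein of the U1 snRNP, the candidate ranked 1830 with a signal of 44.0, from 24.6 and 21.4. It lay 1387 bp upstream of rnp-7, and the nearest 5′ end was that of K04G7.1, 170 bp away. At rnp-2, for a U1 snRNP protein, the candidate ranked 2150 with a signal of 40.3, 137 bp upstream. Replicate 2 gave 31.3 there, with no match in replicate 1. Others were at rnp-1 (27.1), rnp-5 (26.2), rnp-4 (17.6), whose product is the Y14 protein of the exon junction complex, and rnp-3 (16.1). The genes rnp-8, known as a partner of the GLD-2 poly(A) polymerase in the germline, and rnp-9 had none.

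For U2AF, the small subunit gene uaf-2 had a candidate of rank 3966 with a signal of 28.9, 46 bp upstream, matched by 21.9 in replicate 2 only. The large subunit gene uaf-1 had a candidate of 12.3, rank 24220, which lay 1866 bp upstream in the 3′ UTR of rab-18 and matched neither replicate.

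All 8 SR protein genes had a candidate, beside 50.6% of the genes outside the 46, and 4 of the 8 had one among the 2240 strongest, beside 9.57%. The optimal summit of rsp-4 (WBGene00004701), the homologue of SRSF2 (SC35), ranked 1006 with a signal of 60.3, close to the end of the optimal list. Replicate 1 gave 28.0 and replicate 2 gave 31.9, a mean of 29.9 ± 2.76 (SD, n = 2). The summit, in the peak chrII:5389913-5390356, was 1299 bp upstream of rsp-4, beyond the whole gene ndx-6, which is on the same strand and begins 254 bp from the summit.

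The candidate of rsp-6 ranked 1330 with a signal of 52.7, from 23.6 and 26.2, a mean of 24.9 ± 1.81 (SD, n = 2), and lay 158 bp upstream of that gene, the nearest one. The divergent pair rsp-1 and rsp-2 shared a summit of rank 1377 and signal 51.9, from 26.3 and 28.2, a mean of 27.3 ± 1.33 (SD, n = 2). It lay 111 bp from the 5′ end of rsp-1 and 296 bp from that of rsp-2, so that both nearest promoters belong to SR protein genes. The remaining candidates were at rsp-7 (33.1), rsp-8 (32.4), rsp-5 (20.1) and rsp-3 (15.4), the SRSF1 homologue. The candidate of rsp-5 is also that of snr-3, since these divergent genes share 1 summit.

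**Figure D3:**
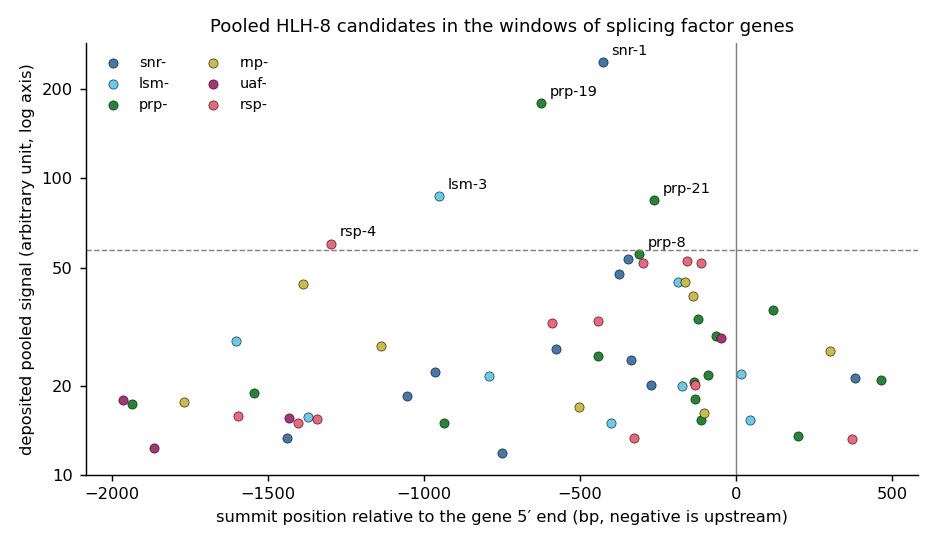
The 60 pairs of a splicing factor gene and a pooled candidate in its window, by summit position relative to the gene's 5′ end (bp, negative upstream) and deposited pooled signal (arbitrary unit, log axis), coloured by name prefix. The dashed line is the signal at the end of the optimal list, 57.363, with 5 points above it and a group of candidates just below it within 500 bp upstream.

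Across the 38 genes with a candidate, the strongest one had a median signal of 30.7 (quartiles 20.1 and 50.9), against 20.3 (quartiles 15.3 and 32.1) for the 10086 other genes with one. Its median rank was 3553, against 8778. It lay upstream of the 5′ end for 33 of 38 genes, 303 bp upstream at the median, against 484 bp for other genes. Of these 38 summits, counted per gene, 25 lay between protein-coding genes, 5 in coding exons, 4 in introns and 4 in UTRs. In the narrow window, from 500 bp upstream to 200 bp downstream, 27 splicing factor genes had a candidate (58.7%), against 26.3% of the others. For 26 genes (56.5%) a candidate was nearest to the gene's own 5′ end, against 39.4% of the others.

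Splicing factor genes also stood closer to other genes. Another protein-coding 5′ end lay in the window of 34 of the 46 (73.9%), against 39.7% of the other genes, and a divergent neighbour within 2000 bp upstream was annotated for 63.0%, against 27.8%. Genes were therefore also compared with others of the same kind. Among the 34 with another 5′ end in the window, 5 had an optimal summit (14.7%), against 8.49% of other such genes, and 14 had one of the 2240 strongest candidates (41.2%), against 13.7%. A candidate of any strength was in the window of 31 of them (91.2%), against 56.9%.

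Among the 12 splicing factor genes with no other 5′ end in the window the shares were nearer to the background. An optimal summit was in 0 of 12 windows, against 3.38% of other such genes, and one of the 2240 strongest candidates in 1 (8.33%), against 6.83%, the one at snr-4. Any candidate was in 7 of 12 (58.3%), against 46.5%. With 12 genes, a difference of 1 gene moves a share by 8.33 percentage points. Among the 17 splicing factor genes with no divergent neighbour within 2000 bp upstream, each share stayed above that of other such genes. Of these 17, 1 had an optimal summit (5.88%, against 3.48%) and 3 one of the 2240 strongest candidates (17.6%, against 6.87%). Any candidate was in the window of 11 (64.7%, against 47.0%). These counts are small as well. Whether the neighbours' promoters account for the counts was not tested.

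The pooled candidates were set against each replicate's own list. A summit in both replicates within 200 bp matched the strongest candidate of 21 of 38 genes (55.3%), against 45.5% of other genes with a candidate. A further 10 had a match in replicate 2 only, 4 in replicate 1 only, and 3, lsm-5, prp-17 and uaf-1, in neither. Taking each replicate by itself, 25 of 38 matched in replicate 1 and 31 in replicate 2, against 6831 and 6950 of 10086 other genes. The strongest candidates of splicing factor genes also ranked higher, at a median of 3553 against 8778. Of 1100 nuclear optimal peaks, 1098 matched both replicates. Matching at like strength was not compared. Over the 20 distinct sites matched in both, replicate 2 was higher at 13, with log2 ratios from -1.01 to 1.09. The median log2 ratio over the 21 genes was 0.19 (SD 0.54). It was 0.13 (SD 0.58) over the strongest candidates of other genes and 0.19 (SD 0.49) over nuclear optimal peaks. The median offset between replicates at these genes was thus near both, beside SDs of that size.

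**Figure D4:**
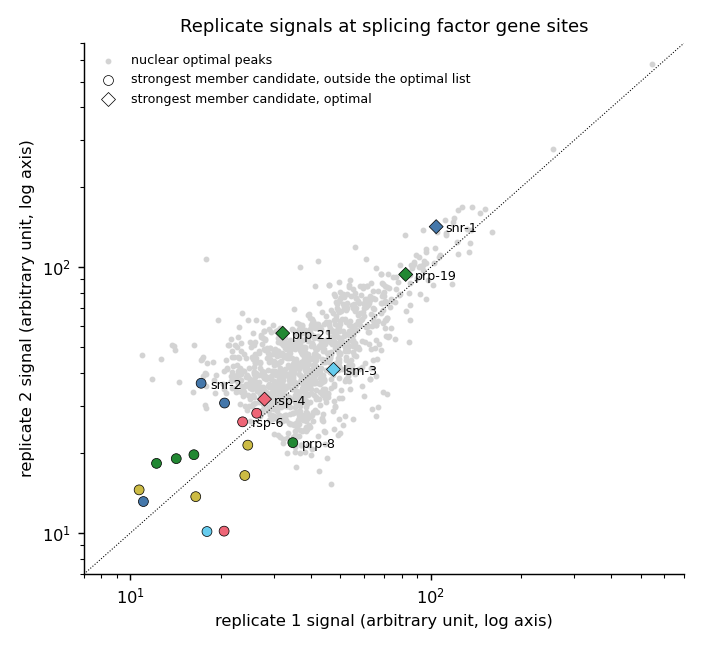
Replicate 1 against replicate 2 signal (arbitrary unit, log axes) at the 20 distinct splicing factor gene sites matched in both, coloured by name prefix as in the plot of candidates by position, over nuclear optimal peaks (grey); the dotted line marks equal values. The 5 optimal sites (diamonds) lie within the grey cloud, with snr-1 and prp-19 at its upper end and rsp-4 at its lower end.

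The sequences under some of the summits are shown. The 101 bases centred on each summit are given for the 5 optimal sites and for 4 of the next strongest that carry an E-box or a shared word, on the plus strand of ce11 from the RefSeq sequence. They lie outside UTRs. The 4 windows from outside the optimal list were picked for what they carry. The number of printed windows with a motif therefore says nothing about the sites. Among the windows left out are that of snr-4, with an E-box, and that of rnp-7, with neither. Capitals mark CANNTG on either strand and the word GCGTCAG.

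snr-1, chrIV:17087572-17087672: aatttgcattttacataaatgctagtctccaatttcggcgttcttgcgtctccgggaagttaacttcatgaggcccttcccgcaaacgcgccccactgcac
prp-19, chrIII:5172619-5172719: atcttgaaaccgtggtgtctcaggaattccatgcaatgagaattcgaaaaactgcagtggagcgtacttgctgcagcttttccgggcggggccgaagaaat
lsm-3, chrIV:13386201-13386301: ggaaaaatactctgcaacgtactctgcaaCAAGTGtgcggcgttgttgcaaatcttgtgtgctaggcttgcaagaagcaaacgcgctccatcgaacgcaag
prp-21, chrII:484553-484653: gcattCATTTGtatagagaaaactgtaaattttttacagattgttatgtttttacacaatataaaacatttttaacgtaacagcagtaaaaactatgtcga
rsp-4, chrII:5390085-5390185: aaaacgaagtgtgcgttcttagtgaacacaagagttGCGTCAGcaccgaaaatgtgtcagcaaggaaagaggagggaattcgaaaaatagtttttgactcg
prp-8, chrIII:8164013-8164113: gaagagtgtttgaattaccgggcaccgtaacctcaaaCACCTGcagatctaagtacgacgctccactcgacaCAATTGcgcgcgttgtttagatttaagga
rsp-6, chrIV:7791337-7791437: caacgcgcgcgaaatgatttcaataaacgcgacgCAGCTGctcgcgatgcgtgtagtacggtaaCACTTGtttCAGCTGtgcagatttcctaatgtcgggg
rsp-1 and rsp-2, chrII:11453201-11453301: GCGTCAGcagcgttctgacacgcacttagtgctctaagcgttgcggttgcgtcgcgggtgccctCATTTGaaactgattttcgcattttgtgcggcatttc
lsm-7, chrIV:10933267-10933367: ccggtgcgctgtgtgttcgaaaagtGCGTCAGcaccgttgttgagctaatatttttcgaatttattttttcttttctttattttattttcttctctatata

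E-boxes were present at some of these sites, and over the 36 distinct strongest summits their share was near that elsewhere. Of the 5 optimal summits, 2 had a CANNTG within 50 bp, CAAGTG at lsm-3 and CAAATG at prp-21, where the plus strand reads CATTTG, against 48.9% of the 1095 other nuclear optimal summits. Of the 36 distinct strongest summits of splicing factor genes, 14 had one (38.9%), against 35.8% of those of other genes and 35.1% of all 25882 nuclear candidates. The windows of prp-8 and rsp-6 hold several, among them CACCTG and CAGCTG. The E-box CATATG was found at 0 of the 36 summits, against 1.99% of those of other genes. The form CAGATG was at 1, that of prp-31, against 6.53%. The form CACATG was also at 1, that of rsp-5 and snr-3, against 5.21%. With 36 summits, counts this small say little beside shares this low. No background share was computed for any other form. Some recurred, but without such a share their recurrence is not a result about these genes. The form at lsm-3 was also at rsp-6, rnp-6 and prp-40. The form at prp-21 was also at the summit of rsp-1 and rsp-2, at rnp-1 and at rnp-3. The form CAATTG was at prp-8, rnp-2 and rnp-4, and CAGCTG was at rsp-6 and snr-4.

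The repeat GAGAGA, read on both strands (TCTCTC on the other), was at 0 of the 5 optimal summits, against 26.2% of the other optimal summits. With only 5 summits, a count of 0 is near such a share. GAGAGA was at 2 of the 36 strongest summits (5.56%), those of lsm-6 and snr-6, against 13.3% of those of other genes. The GC content of the 5 windows was 43.2% ± 10.7 (SD over 5 sites), from 24.8% at prp-21 to 49.5% at snr-1, prp-19 and lsm-3, against 48.4% ± 7.82 at the other optimal summits.

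The word GCGTCAG, read on both strands, was picked by eye after these windows had been read, and so it supports nothing. It occurred at 3 of the 36 strongest summits (8.33%), those of rsp-4, lsm-7 and the pair rsp-1 and rsp-2, against 1.01% of those of other genes, 1.19% of the other optimal summits and 0.715% of all candidates.

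Genes of the same pathway that carry other names were examined in the same way. Of 66 other spliceosome and splicing regulator genes found in the annotation, 12 had an optimal summit (18.2%, against 5.41% of protein-coding genes outside the 46), and 10 of the 12 summits were nearest to that gene's own 5′ end. The strongest were at the regulators etr-1, a CELF protein gene (signal 197, from 91.7 and 100.01 in replicates 1 and 2), and asd-1, a Rbfox family gene (170, from 96.5 and 76.2). Next were luc-7L (147), mog-3 (131), the helicase gene mog-4 (108) and skp-1 (98.1). The summits of luc-7L and skp-1 were those nearer to another gene, B0495.9 and bir-1. The others were fust-1 (85.6), smu-2 (74.7), hrpr-1 (70.3), the helicase gene mog-5 (66.9), usp-39 (59.8) and ddx-23 (59.1), the last being the homologue of the PRP28 helicase. A candidate of any strength was in the window of 55 of the 66 (83.3%). The optimal share was above the 10.9% of the 46 genes, but the order turned with the list used. It was 13.6% against 15.2% from replicate 2 alone, and 28.8% against 32.6% for the 2240 strongest candidates. The difference between these lists of genes was not tested.

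Other families with roles in most cells were counted for comparison, beside shares of 5.41%, 9.57% and 50.6% for protein-coding genes outside the 46. Among 78 ribosomal protein genes, 18 had an optimal summit (23.1%), 33 one of the 2240 strongest candidates (42.3%) and 74 any candidate (94.9%). Among 33 proteasome subunit genes these counts were 6 (18.2%), 9 (27.3%) and 29 (87.9%). The splicing factor genes, at 10.9%, 32.6% and 82.6%, were below the ribosomal protein genes on each count, below the proteasome genes on the optimal and any-candidate counts, and above them on the 2240 strongest. These families were added with the results for splicing factor genes known, and no test was made between them.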

How the data were processed

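Peak lists were analysed from ChIP-seq of tagged HLH-8 in 2 biological replicates of 1 group. Per the deposited file inventories, candidate lists were made for each replicate and for both pooled, and an optimal list came from an irreproducible discovery rate (IDR) step. For the aligner, peak caller and scaling for depth, names or settings were not given in the sources used here. Column 7 holds the signal, deposited by the authors in an arbitrary unit, from which ranks were taken. The -log10 q values in column 9, also deposited by the authors, reached a ceiling for 1846 pooled candidates and were not used for ranking. Summits came from column 10. Read depth is unknown, so no counting interval is given, and with 2 replicates an SD describes only the spread of a site.

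Genes came from Ensembl release 115 for ce11, and sequence from RefSeq for that assembly, whose chromosome lengths were checked against the peaks. Positions are 1-based. The ce10 lists were not used here. The 5′ end is that of the gene record, and a summit was counted for every window it fell in. Replicate summits within 200 bp counted as matching, and motifs were sought within 50 bp of summits.

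The 46 genes, the other gene lists and the rules were chosen with earlier results of these data known. Genes described in full are those with an optimal summit, the strongest of a prefix without one and the 10 next strongest. Those without a candidate are named only, and the other members, outside this rule, are given mostly by their signal so that each gene is accounted for. The other spliceosome list held 71 names, of which 66 were found. The scripts were tested on simulated data. Calculations used Python 3.11.15, numpy 2.4.6 and pandas 2.3.3, and plots matplotlib 3.10.9. Alternatives covered the window, the 5′ ends, the rank limit, small RNA genes, motif distance and each replicate alone.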

Additional observations from a re-analysis of the deposited data

How the results depend on the processing

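Of 54 alternative values, 39 stayed within 1.5 times the count reported, or within 1 SD for a median. That SD was taken over the medians of the 2 single replicates, whose signals are on another scale than the pooled signal. The 39 include GAGAGA and nearest-gene counts that were 0 and stayed 0, which say little about stability. The side on which a share stood relative to other genes or summits turned in some of them. The splicing factor genes' share with an optimal summit was above that of other genes in 9 of 10 alternatives. The exception was counting only the gene with the nearest 5′ end, which gave 0 genes against 3.45%. The count was 2 in the narrow window and, with limits chosen after seeing the data, 15 and 21 for the 2240 and 4480 strongest candidates, and it ranged from 5 to 7 with 1 replicate left out. The count of optimal summits nearest to the gene's own 5′ end ranged from 0 to 2 with 1 replicate left out and was 5 for the 2240 strongest. Its share, 0 against 3.45% of other genes, turned to 4.35% against 3.39% without replicate 2 and to 10.9% against 6.31% for the 2240 strongest. In the narrow window the optimal count, 2 as reported, ranged from 3 to 4 with 1 replicate left out. The share with any candidate was above that of other genes in 7 of 7 alternatives. The median signal was 34.8 with the stronger part of the candidates and ranged from 15.2 to 18.7 from 1 replicate, whose signals are on another scale. Summits with a CANNTG numbered 1 within 25 bp, and 1 to 2 with 1 replicate left out, and their share, 40% against 48.9%, turned to 50% against 47.2% in the stronger part of the optimal list. For the other spliceosome and splicing regulator genes the optimal count was 7 in the narrow window, 7 with the stronger part of the optimal list and 19 for the 2240 strongest. The cause of each shift was not tested. No paired analysis was possible because the samples form 1 group. Depth is unknown, so a window without a candidate shows only that none was listed.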

Other observations

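Some sites touched more than 1 gene of the splicing machinery. The candidate upstream of rnp-7 (signal 44.0) was also in the window of syf-2, a spliceosome gene on the same strand. The 5′ end of syf-2 was 427 bp from the summit, against 1387 bp for rnp-7. The nearest 5′ end, 170 bp away, was that of a further gene, K04G7.1. The gene nearest to the candidate of rsp-7 (33.1) was snu-13, for a protein of the U4/U6 snRNP, 137 bp away. The candidate of rnp-3 (16.1) lay in the 3′ UTR of rnp-2, which is upstream of it on the same strand, and both rnp-2 and rnp-3 had a candidate close to their own 5′ ends, at 137 bp and 103 bp.

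Among the 38 genes with a candidate, 19 had 1 in the window, 16 had 2 and 3 had 3, namely rsp-3, snr-4 and uaf-2. Over all 46 genes the mean was 1.30 candidates per gene, against 0.756 for other protein-coding genes.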
